A study of Mus musculus with 6 samples.

Results

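Pirt and 8 members of the transient receptor potential (TRP) channel family were followed in left ventricular tissue, to see which of these temperature- and stretch-sensing genes give a signal in the ventricle and how that signal differed after 2-methyl-2-thiazoline (2MT). The genes were chosen by symbol, as Pirt, Trpa1, Trpv1, Trpv2, Trpm4, Trpm7, Trpm8, Trpc1 and Pkd2, and every probe set that the platform annotation gives to one of them was taken, dim ones included. Of the 9 listed genes 8 had a probe set, 1 each and with no second symbol, out of 28944 probe sets and 19938 named genes in the table. Pkd2, which encodes polycystin-2, was not analysed here because no probe set was named for it. The list was drawn up with the difference between the 2MT and saline hearts already known, and that difference was what brought Pirt into view. The values of the members in this contrast are therefore a description. Where a count below says that a member passed the threshold of the whole table, that count restates how the list arose and supports nothing.

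The tissue came from male C57BL/6 mice (given as C57/BL6 in the sample labels) at an age of 10 weeks, with 3 Affymetrix arrays labelled saline and 3 labelled 2-methyl-2-thiazoline, and the series was made to study how 2MT protects the heart. The treatment protocol is a subcutaneous injection of 50 mg/kg 2MT with the hearts taken 4 h later. The same text stands on all 6 samples, and the protocol of the saline injection is not given in it. The labels do not say that each array is a separate animal, so every p-value here stands for the scatter of these 6 samples, part or all of which could be technical. The whole ventricle wall was sampled, and fewer cells of a type and less RNA per cell cannot be told apart in such tissue.

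TRP channels are cation channels built from subunits around a central pore, and many of them open to heat, cold, stretch, irritants or lipid signals. TRPA1 and TRPV1 are best known from sensory nerve endings, where TRPA1 responds to reactive irritants and to thiazoline odorants such as 2MT and TRPV1 to heat and capsaicin, and TRPM8 responds to cold and menthol. PIRT is a small membrane protein that binds phosphoinositides and raises the activity of TRPV1 and TRPM8, while TRPM4, TRPM7, TRPC1 and TRPV2 are found well beyond the nervous system, in heart and vessels among other tissues.

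The regions at the transcription start show how the genes of these channels differ in sequence. The windows below run from 250 bases before to 50 bases after a start, from RefSeq on GRCm38.p6, written 5′ to 3′ with every CG dinucleotide in capitals. They are shown for a pair of channels above the dim filter (described with the values) and a pair of sensory channels below it.
Trpm7, chr2:126876212-126876511, minus strand: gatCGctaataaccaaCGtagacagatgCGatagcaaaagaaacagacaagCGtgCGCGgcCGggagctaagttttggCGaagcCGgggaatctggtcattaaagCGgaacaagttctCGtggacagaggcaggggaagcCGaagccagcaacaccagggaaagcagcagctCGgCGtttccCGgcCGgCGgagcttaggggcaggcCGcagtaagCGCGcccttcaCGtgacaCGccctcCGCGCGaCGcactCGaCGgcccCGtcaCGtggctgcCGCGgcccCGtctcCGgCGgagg
Trpc1, chr9:95750299-95750598, minus strand: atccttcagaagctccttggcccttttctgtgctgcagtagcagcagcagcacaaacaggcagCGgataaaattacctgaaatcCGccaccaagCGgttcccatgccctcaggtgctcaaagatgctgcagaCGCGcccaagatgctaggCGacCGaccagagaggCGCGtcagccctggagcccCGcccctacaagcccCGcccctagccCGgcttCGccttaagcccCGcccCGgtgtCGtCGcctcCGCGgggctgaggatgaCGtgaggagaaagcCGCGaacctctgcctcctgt
Trpv1, chr11:73233899-73234198, plus strand: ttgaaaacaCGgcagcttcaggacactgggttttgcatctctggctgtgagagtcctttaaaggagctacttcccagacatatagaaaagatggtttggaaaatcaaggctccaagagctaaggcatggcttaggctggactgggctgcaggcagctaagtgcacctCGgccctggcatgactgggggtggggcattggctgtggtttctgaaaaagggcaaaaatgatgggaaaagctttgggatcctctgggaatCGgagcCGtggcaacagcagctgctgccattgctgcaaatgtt
Trpm8, chr1:88306485-88306784, plus strand: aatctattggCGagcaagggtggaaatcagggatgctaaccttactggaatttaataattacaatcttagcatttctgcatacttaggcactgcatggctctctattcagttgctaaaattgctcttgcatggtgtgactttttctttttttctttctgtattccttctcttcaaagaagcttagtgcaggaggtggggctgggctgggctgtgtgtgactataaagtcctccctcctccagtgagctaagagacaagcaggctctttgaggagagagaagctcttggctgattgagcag

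The search was for the letters CG, which read the same on both strands. The Trpm7 window held 35 of them, and 6.95% of all 32851 windows in the RefSeq table held at least as many. The Trpc1 window held 22, with 23.1% of all windows at or above that count. The Trpv1 window held 4, and 38.0% of all windows held at most as many, so it was not unusual among windows with a median of 7 and quartiles of 3 and 20. The Trpm8 window held 1, with 14.1% of all windows at or below that count. Trpv2 has 3 start windows in that table, which held 2, 2 and 7, and the Pkd2 window held 9. These counts describe the letters of each window only. No window was listed for Pirt, Trpa1 or Trpm4.

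A log2 signal of 4.345, the median of all probe set means, served as a dim filter: a gene whose mean over the 6 arrays lay under it is called dim. Pirt, Trpm4, Trpm7 and Trpc1 were above it, and Trpa1, Trpv1, Trpv2 and Trpm8 were dim. The member nearest above the filter was Pirt at 5.08 and the nearest below was Trpv2 at 3.80. Probe sets differ in how well they bind, so the signals of different genes give no order of abundance.

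**Figure D1:**
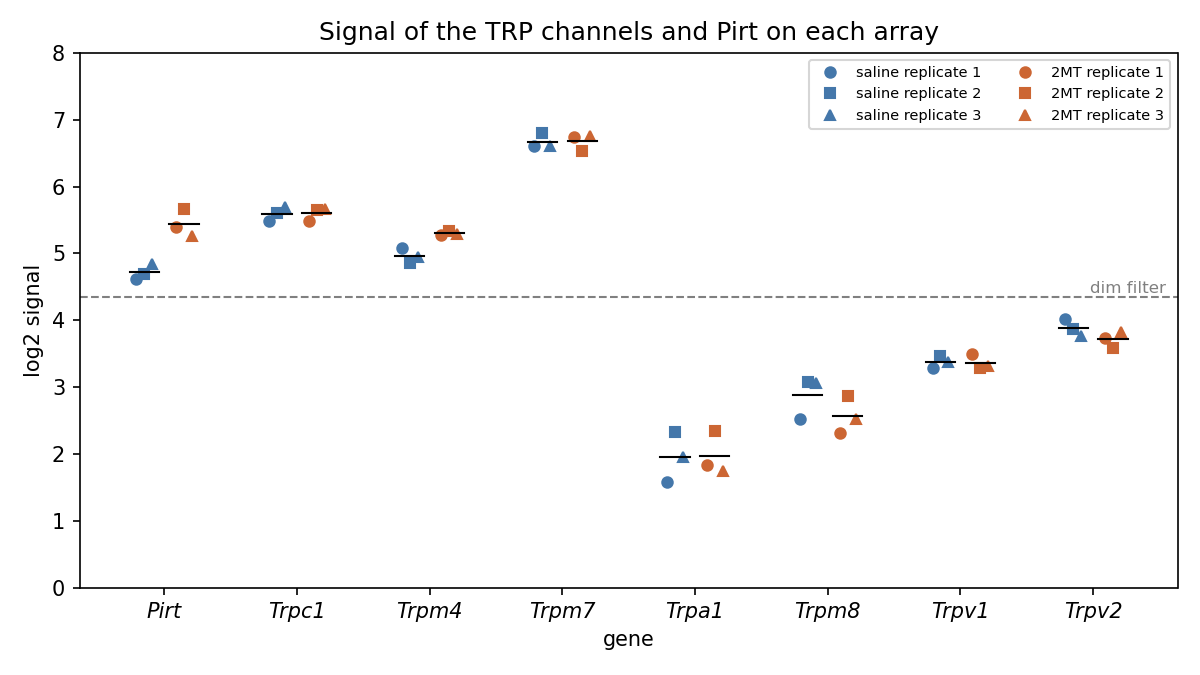
Log2 signal (vertical axis) of the 8 members on each of the 6 arrays, saline in blue and 2MT in orange, with marker shapes for the replicate numbers, black bars for group means and a dashed line at the dim filter of 4.345. Pirt and Trpm4 are the members whose saline and 2MT arrays do not overlap, and Trpa1, Trpm8, Trpv1 and Trpv2 lie under the line on every array.

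Of the members, Pirt differed most between the groups. The saline arrays 1, 2 and 3 read 4.62, 4.70 and 4.84, and the 2MT arrays read 5.39, 5.66 and 5.26. Every 2MT array was above every saline array, with a gap of 0.42 between the lowest 2MT and the highest saline value, against a range of 0.22 within saline and 0.40 within 2MT. The group means were 4.72 ± 0.11 in saline and 5.44 ± 0.20 in 2MT (SD, n = 3), a log2 difference of 0.72 ± 0.11 (SE) or 1.64-fold. A difference of at least that size, in either direction, was seen in 0.569% of the 10547 genes above the dim filter. The saline mean of 4.72 was above the filter of 4.345 but near it. Fold changes of low signals can be understated, and whether that holds for Pirt was not tested.

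Trpm4, a channel that calcium opens and that lets sodium and potassium pass, was the other member with groups apart. It read 5.08, 4.86 and 4.94 in saline and 5.28, 5.34 and 5.29 in 2MT. The 2MT arrays lay within 0.06 of each other, and the lowest was 0.20 above the highest saline array. The means were 4.96 ± 0.11 and 5.30 ± 0.03 (SD, n = 3), a log2 difference of 0.34 ± 0.09 (SE) or 1.27-fold, and 4.04% of genes above the filter differed by at least as much.

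Trpm7, a magnesium- and calcium-permeable channel fused to a kinase, read 6.61, 6.80 and 6.61 in saline and 6.74, 6.54 and 6.76 in 2MT. The groups overlapped, at a log2 difference of 0.01 ± 0.08 (SE). Trpc1, a subunit of receptor- and store-operated cation channels, read 5.48, 5.60 and 5.69 in saline and 5.49, 5.65 and 5.66 in 2MT. Its groups overlapped as well, at 0.01 ± 0.09 (SE). For both genes the difference was smaller than the SD within either group, which was between 0.10 and 0.12.

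Trpa1, the irritant receptor, gave a dim signal in both groups. It read 1.58, 2.33 and 1.96 in saline and 1.84, 2.34 and 1.74 in 2MT. The highest array of either group was its replicate 2, and the means of 1.96 ± 0.38 and 1.97 ± 0.32 (SD, n = 3) gave a difference of 0.02 ± 0.19 (SE). Trpm8, the cold receptor, read 2.52, 3.07 and 3.06 in saline and 2.32, 2.86 and 2.52 in 2MT. Its groups overlapped, at -0.32 ± 0.17 (SE), and in the fit with no dim filter 5.06% of all named genes differed by at least as much.

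Trpv1, the heat and capsaicin receptor, read 3.28, 3.46 and 3.38 in saline and 3.50, 3.29 and 3.31 in 2MT, a difference of -0.01 ± 0.12 (SE). Trpv2, a relative of Trpv1 known from muscle and immune cells, read 4.02, 3.87 and 3.76 in saline and 3.74, 3.59 and 3.83 in 2MT. The lowest saline array lay below the highest 2MT array, and the difference was -0.16 ± 0.12 (SE). For the dim members the SE comes from the fit with no dim filter. The spread between arrays was wider in Trpa1 and Trpm8, with an SD over the 6 arrays of 0.31 and 0.32, than in Trpv1 and Trpv2, with 0.09 and 0.14.

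**Figure D2:**
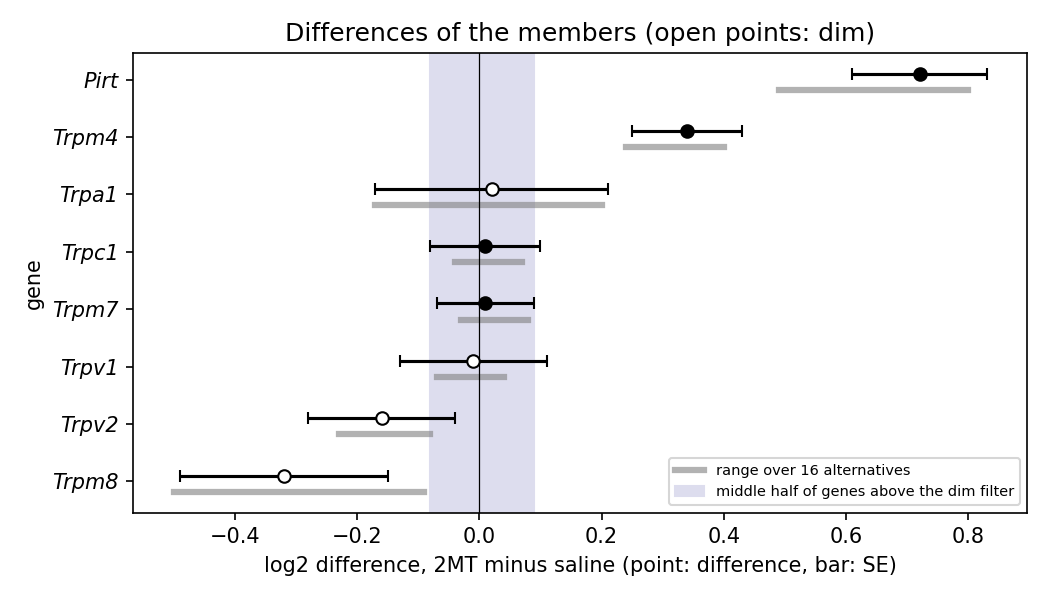
Log2 difference of 2MT minus saline (horizontal axis) for each member, with points for the difference, bars for its SE, open points for dim genes, grey bars for the range over 16 processing alternatives and a shaded band from -0.08 to 0.09 for the middle of all genes above the dim filter (lower to upper quartile). Pirt at 0.72 and Trpm4 at 0.34 lie to the right of the band with their whole grey bars, and the bars of Trpa1, Trpv1, Trpm7 and Trpc1 span 0.

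Of the 4 members above the filter, 1 (Pirt) passed an adjusted p of 0.05 in limma, where 4.63% of all 10547 genes did, 2.22% higher and 2.41% lower in 2MT. Groups did not overlap in 2 of these 4, both with the higher values in 2MT, where 21.1% of genes above the filter had groups apart and 11.1% had them apart with 2MT higher. Of the 8 members with dim ones included, groups did not overlap in 2, against 16.2% of all 19938 named genes. Among the 16 alternatives Pirt passed the threshold in 16 and Trpm4 in 3. The stricter dim filter, at a log2 signal of 4.98, was among those settings for both genes. Their saline means of 4.72 (Pirt) and 4.96 (Trpm4) lay under 4.98, so both entered that fit only through their 2MT arrays. Since the choice of members drew on this contrast, nothing is read from these counts and shares. Over 16 alternatives, all fitted to the same arrays, the difference of Pirt lay between 0.49 and 0.80, that of Trpm4 between 0.24 and 0.40, that of Trpv2 between -0.23 and -0.08, and that of Trpm8 between -0.50 and -0.09. Trpa1 ran from -0.17 to 0.20, Trpv1 from -0.07 to 0.04, Trpm7 from -0.03 to 0.08 and Trpc1 from -0.04 to 0.07, so these had no settled direction.

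To see how bright a probe set is where little transcript is thought to be present, the members were set beside 1245 probe sets of chemosensory receptors (olfactory, vomeronasal and bitter taste receptor genes), which are mainly used in sensory epithelia. Their mean signal had a median of 2.10 and a 95th percentile of 3.71, and 14 of them (1.12%) were above the dim filter. Of these 1245, 0 were as bright as Trpm7 or Trpc1, 2 were at or above Trpm4 (0.161%) and 4 were at or above Pirt (0.321%). Trpa1 lay inside that distribution, with 58.2% of the receptor probe sets at or above it. Trpm8 had 23.3% at or above it, Trpv1 9.56% and Trpv2 3.86%, just past the 95th percentile. Some chemosensory receptors may be transcribed in the heart and probe sets differ in affinity, so this is a reference for background and no detection call.

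The reference itself moved little between arrays, with medians from 2.03 to 2.15. It was 2.13, 2.14 and 2.15 on the saline arrays and 2.11, 2.09 and 2.03 on the 2MT arrays. A median over so many probe sets moves far less than a single gene, so these values only give the level of the reference on each array.

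**Figure D3:**
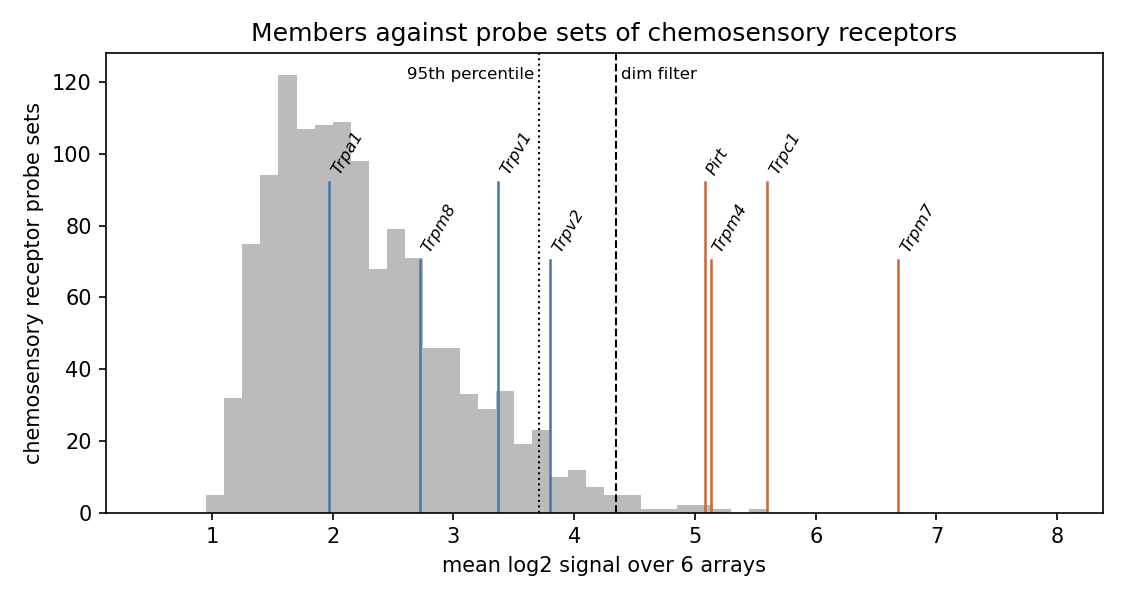
Number of chemosensory receptor probe sets (vertical axis) by mean log2 signal over the 6 arrays (horizontal axis), with vertical lines for the members, blue where dim and orange where above the dim filter, a dotted line at the 95th percentile of the receptors and a dashed line at the dim filter. Trpa1 sits in the bulk of the receptor probe sets, Trpv2 just past the dotted line at 3.71, and Pirt, Trpm4, Trpc1 and Trpm7 to the right of the dashed line at 4.345.

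The rest of the TRP family was mostly dim. Of 20 other family genes 18 had a named probe set and 3 were above the filter: Trpv4, a channel opened by osmotic swelling and warmth, Mcoln1, the lysosomal calcium channel mucolipin-1, and Pkd2l2, a relative of polycystin-2. None of the 3 changed at an adjusted p of 0.05 in limma, and 1 had an unadjusted p under 0.05. That gene was Pkd2l2, which read 4.34, 4.5 and 4.39 in saline and 4.97, 4.89 and 4.57 in 2MT, with groups apart and a difference of 0.40 ± 0.12 (SE, adjusted p = 0.0747 in limma). Without 2MT 3, its lowest 2MT array, it passed (difference 0.52, adjusted p = 0.04 in limma). The saline mean of Trpv4 was 5.04 ± 0.23 and its 2MT mean 4.88 ± 0.07 (SD, n = 3), with an adjusted p of 0.52 in limma. Mcoln1 had means of 6.72 ± 0.13 and 6.80 ± 0.08 in the same order (SD, n = 3, adjusted p = 0.67 in limma).

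**Figure D4:**
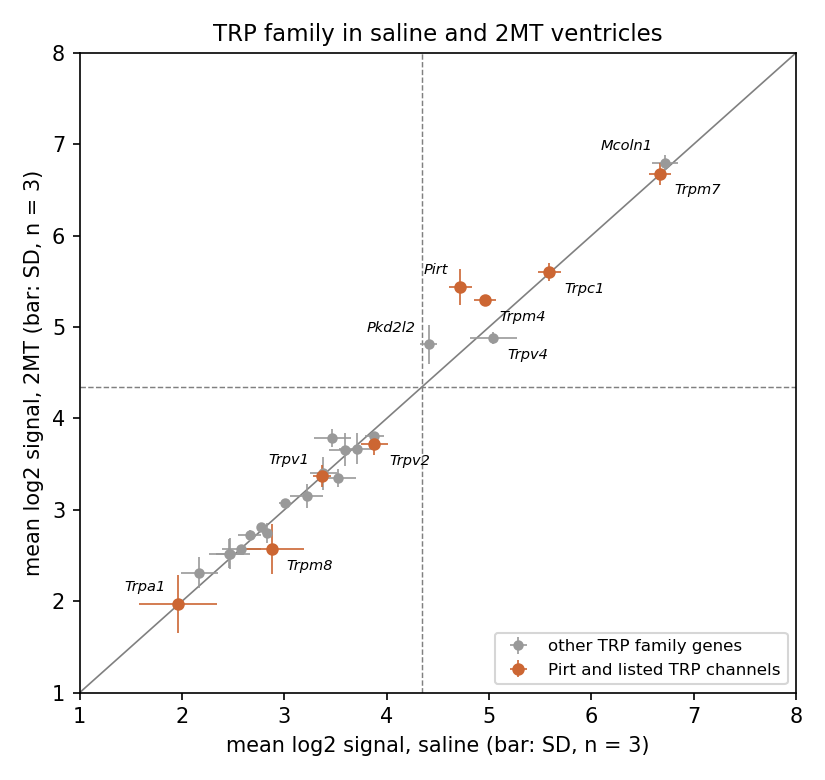
Mean log2 signal in 2MT (vertical axis) against saline (horizontal axis) for the 8 members in orange and 18 other TRP family genes in grey, with bars for the SD over 3 arrays, dashed lines at the dim filter and a diagonal where both groups are equal. Pirt stands furthest above the diagonal, Pkd2l2 and Trpm4 follow, and most family genes lie along the diagonal under the filter.

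Other channels that sense temperature, stretch or cell volume, and their partners, were carried as a list of 27 genes, all named, of which 13 were above the filter. In limma 1 of the 13 fell and 0 rose, where 2.41% of all genes tested fell and 2.22% rose. The median difference was 0.02 where that of all genes tested was 0.00. The gene that fell was Lrrc8a, the obligatory subunit of the volume-regulated anion channel, which read 8.26, 8.17 and 8.05 in saline and 7.82, 7.82 and 7.66 in 2MT. All 2MT arrays were lower, at a difference of -0.39 ± 0.07 (SE, adjusted p = 0.00469 in limma), and the adjusted p ran from 0.000981 to 0.039 over the alternatives. Piezo1, the stretch-gated channel of vessels and blood cells, had a saline mean of 6.67 ± 0.23 and a 2MT mean of 6.49 ± 0.12 (SD, n = 3), and Piezo2, its relative of touch neurons, was dim. Kcnk3, an acid-sensitive background potassium channel, had groups apart at 0.22 ± 0.06 (SE, adjusted p = 0.0571 in limma) and passed without saline 3 (0.0446 in limma). Ano1 had groups apart too, at 0.24 ± 0.10 (SE, adjusted p = 0.21 in limma). Of all genes above the filter 21.1% had groups apart. Pkd1, the partner of polycystin-2, had a saline mean of 6.17 ± 0.11 and a 2MT mean of 6.09 ± 0.07 (SD, n = 3).

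Because PIRT acts through phosphoinositides, enzymes that make or break down these lipids, with the inositol trisphosphate receptors, formed a further list. Of 34 genes 33 had a named probe set and 28 were above the filter. In limma 0 of the 28 passed, 7 had an unadjusted p under 0.05, and the median difference was 0.00. The share of all genes at that unadjusted p was not counted, so nothing is read from the 7. The smallest p belonged to Inpp5e, a phosphoinositide 5-phosphatase of cilia, with means of 4.98 ± 0.12 in saline and 5.32 ± 0.09 in 2MT (adjusted p = 0.0644 in limma), and to Synj2, a synaptojanin with the same activity, with 6.37 ± 0.17 and 6.70 ± 0.15 (SD, n = 3, adjusted p = 0.0716 in limma). Synj2 passed without saline 2 (0.0368 in limma), without 2MT 1 (0.0376) and with the replicate block (0.017). Without saline 3, 3 genes passed in limma: Inpp5e, with a difference of 0.41 (adjusted p = 0.0329), Pip5k1b, a kinase that makes phosphatidylinositol bisphosphate, with 0.31 (0.0237), and Itpr2, an inositol trisphosphate receptor, with -0.36 (0.0427).

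Calmodulin genes, anchoring proteins and kinases that act on TRP channels had 17 named members of 18, and 16 were above the filter. Of these 16 genes 1 rose and 0 fell, where 2.22% of all genes tested rose and 2.41% fell. The median difference was 0.10, with 13 of the 16 means higher in 2MT, where 50.8% of all genes above the filter were. Camk2g, a subunit of calcium/calmodulin-dependent kinase II, rose from 6.02, 6.04 and 6.06 in saline to 6.37, 6.34 and 6.27 in 2MT, a difference of 0.29 ± 0.07 (SE, adjusted p = 0.0387 in limma). The adjusted p rose above 0.05 when saline 1 (0.111), saline 2 (0.0863), 2MT 1 (0.127), 2MT 2 (0.129) or 2MT 3 (0.0836) was left out, and with no dim filter (0.0666) or no variance trend (0.0524), all in limma. Of the sensory neuropeptides, neurotrophins and their receptors 17 of 21 were named and 8 were above the filter. In limma 0 of the 8 passed, with 0 at an unadjusted p under 0.05. The peptide genes Calcb and Tac1 were dim, and Calcrl, the receptor subunit for the calcitonin gene-related peptide and adrenomedullin, had means of 6.88 ± 0.07 in saline and 6.92 ± 0.17 in 2MT (SD, n = 3).

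Pirt and Trpa1 are known from sensory nerves, so nerve markers were read beside them. Of 13 sensory neuron markers, all named, 12 were dim, Scn10a, Prph and Avil included, and Uchl1 was the one above the filter. Their mean level ran from 3.29 to 3.36 over the saline arrays and from 3.36 to 3.39 over the 2MT arrays. The saline mean of Uchl1 was 5.27 ± 0.14 and its 2MT mean 5.0 ± 0.16 (SD, n = 3), with an adjusted p of 0.20 in limma. Over the 13 markers 8 means were higher in 2MT and 5 lower, where 48% of all named genes had a higher mean in 2MT. Among the higher were Gap43, a growth-cone protein, by 0.31 ± 0.14, Scn10a by 0.28 ± 0.14 and Tubb3 by 0.25 ± 0.12 (SE), all dim. Uchl1 was among the lower, at -0.27 ± 0.11 (SE). All 7 named markers of sympathetic and parasympathetic neurons were dim, with mean levels from 3.49 to 3.64 in saline and 3.49 to 3.54 in 2MT. Of these 7 markers 4 means were higher in 2MT and 3 lower, Th among the lower. The 8 named Schwann cell markers, of which Sox10, Cnp, Erbb3, Cdh19 and Gfra3 were above the filter, had mean levels from 4.31 to 4.36 and from 4.28 to 4.36. In limma 0 of the 6 nerve and Schwann cell genes above the filter passed, and Uchl1 had an unadjusted p under 0.05. With no dim filter 0 of the 28 named nerve and Schwann cell genes passed in limma, and 3 had an unadjusted p under 0.05: Uchl1, Gap43 and Th, the enzyme that starts catecholamine synthesis, which was dim and differed by -0.29 ± 0.12 (SE). What part nerve fibres have in the Pirt signal was not tested.

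Across all genes the arrays of a group correlated at 0.992 to 0.995 and those of different groups at 0.987 to 0.990. The 10 cardiomyocyte markers had mean levels of 12.35 to 12.39 on all 6 arrays. Saline 2 stood apart in the atrial marker Myl4, at 6.47 against 4.80 to 5.13 elsewhere, and saline 3 in the erythrocyte marker Alas2, at 7.07 against 5.15 to 5.76. The difference of Pirt was 0.71 without saline 2 and 0.78 without saline 3, and that of Trpm4 was 0.29 and 0.33. Of 10 endothelial markers 5 means were higher in 2MT and 5 lower. Pecam1 fell by 0.33 (adjusted p = 0.02 in limma). That call was lost without saline 1 (0.0944), saline 2 (0.0861), 2MT 2 (0.094) or 2MT 3 (0.113), and with no variance trend (0.0891), all in limma. Of 10 macrophage markers 4 means were higher in 2MT and 6 lower, and Fcgr3 fell by 0.53 (adjusted p = 0.00445 in limma). Among all genes above the filter 2.41% fell. None of the fibroblast, smooth muscle, erythrocyte, adipocyte or atrial markers tested passed in limma, with 3 of them at an unadjusted p under 0.05. Those tested numbered 10, 9, 2, 1 and 1 in that order, so the last 3 lists say little. All 6 mast cell markers were dim and were not tested.

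The genes whose levels followed a member most closely were found by Pearson correlation over the 6 arrays, among the genes above the filter. These are descriptions over few arrays, which share the group difference where there is one. Each was picked as the highest of very many correlations, and Trpc1, whose groups overlapped, reached an r of 0.992 as well. For Pirt the leading 5 were Ebpl, Sox4, Emc6 and Myl12a, each at r = 0.99, and Crhr2, a receptor for urocortins, at r = 0.989. Among these Sox4, a transcription factor, differed by 0.76 ± 0.13 and Crhr2 by 0.38 ± 0.08 (SE, adjusted p = 0.0035 and 0.0189 in limma), while Ebpl, Emc6 and Myl12a followed the array order with differences of 0.11 to 0.17. For Trpm4 the leading genes were Abca6, a lipid transporter of the ABC family that rose by 0.40 ± 0.08 (SE, adjusted p = 0.0119 in limma), and Tcp1, a chaperonin subunit, at r = 0.995 and 0.991. Trpm7 was followed by Pigv (r = 0.981) and Prkci (r = 0.969), and Trpc1 by Parn (r = 0.992) and Rgs7bp (r = 0.988), with differences of these 4 genes between 0.01 and 0.05.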

How the data were processed

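Left ventricular RNA of 6 samples was read on 1 array each, from 100 ng of total RNA made into biotinylated cDNA, per the labels' protocols. The authors deposited a single value for each probe set on each array, read here as log2 signal because the values run from 0.51 to 13.5, a range that would pass a scanner's limit as natural logarithms. MAS5 is named in the submitters' processing notes, with no version or role, and for the scaling a statement was not given in the sources used here. Array medians lie between 4.32 and 4.37, and values were used as deposited.

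Probe sets were named through the platform annotation and Entrez IDs. Of 28944, 21789 had 1 symbol (21698 matched the RefSeq gene table), 1621 several and 5534 none here. Each gene is its probe set with the highest mean. The comparison used limma 3.58.1 under R 4.3.3 (lmFit, eBayes with variance trend, two-sided, group only, Benjamini-Hochberg over 10547 genes above the dim filter), tested on simulated data. "Rose" and "fell" mean an adjusted p under 0.05. Counts at an unadjusted p under 0.05 stand without the share over all genes, which was not computed, and are not read as an excess. No detection calls were used, so signal over background is unknown, and precision is limited by the number of arrays. Alternatives changed scaling, the dim filter, an offset of 16 before log2, probe set averaging, the variance model, the replicate block, and left out each array.

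Members and lists were chosen with earlier results of these data known. Named genes were all members, list genes that passed or, where none did, up to 2 with the smallest p, called markers and nerve markers above the filter, and the 5 (Pirt) or 2 (others) most correlated genes. Piezo1, Piezo2, Kcnk3, Ano1, Pkd1, Calcb, Tac1, Calcrl, Trpv4, Mcoln1, Pip5k1b, Itpr2, Scn10a, Prph, Avil, Gap43, Tubb3, Th, Myl4 and Alas2 were named after their values were seen. Figures used matplotlib 3.10.9 in Python 3.11.15.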

Additional observations from a re-analysis of the deposited data

How the results depend on the processing

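Pirt was listed for its difference, so its values under the alternatives describe only how that difference moves with the processing of the same arrays. With the offset before log2 it was 0.49, since an offset shrinks differences of low signals. The difference of Pirt was 0.72 with the replicate block and ran from 0.60 to 0.80 with 1 array left out. The block cannot move a difference of means here, since each replicate number occurs once in each group. Changes of the dim filter, no variance trend and probe set averaging cannot move a member's difference either, as each member has 1 probe set. The ranges of the members therefore come from the other alternatives. Deviations from the group means of same-numbered arrays correlated at 0.07, 0.04 and 0.022, which does not settle whether the replicate numbers pair the arrays. The block gave 586 calls over all genes where the fit without it gave 488. No variance trend gave 292 calls, and leaving out 1 array 261 to 646. Camk2g was the 1 call in its list, which became 0 with no dim filter and with no variance trend, and 0 to 1 with 1 array left out. The thermo- and mechanosensitive list went from 1 to 2 calls with array weights and with the replicate block (Kcnk3 joining Lrrc8a), and stood at 1 to 2 with 1 array left out. The phosphoinositide list went from 0 to 1 with array weights and with the replicate block (Synj2), and to 0 to 3 with 1 array left out, and the other TRP family genes to 0 to 1. The cause of these moves was not tested. The 95th percentile of the chemosensory receptors was 3.74 with olfactory receptors alone and 3.81 with several-symbol probe sets included, where Trpv2 at 3.80 falls under it. Signal over background limits what can be said of the dim channels.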
